A study of Mus musculus with 6 samples.

Results

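Long intergenic non-coding RNAs (lincRNAs) are long transcripts from genes that lie between protein-coding genes and carry no long reading frame. The members described here are 174 of the 54532 genes in the table. They are the genes with the lincRNA biotype, on chromosomes other than X and Y, with a mean of at least 1 FPKM over the 6 hearts. FPKM is the count of sequenced fragments per length of gene, corrected for the depth of each library. The members were thus chosen by their mean level over both groups, and not by the difference between the groups. Of 181 lincRNA genes at that level, 6 were set aside by name, as small nucleolar RNA hosts or imprinted RNAs, and 1 for its chromosome. On the same rule without the level, 1767 further lincRNA genes lay above 0 and under 1 FPKM, and 2966 were listed at 0 in every heart. Just inside the threshold lay Gm36670 at a mean of 1.003 FPKM and AI838599 at 1.01 FPKM. Just outside it lay Halr1 at 0.998 FPKM and Gm41414 at 0.969 FPKM.

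The mice were 15 days old, and RNA of the whole heart was sequenced in 2 groups of 3 animals. Nat10-CKO hearts are labelled as lacking Nat10 in cardiomyocytes, and Nat10flox/flox hearts carry the floxed alleles. Neither the Cre driver nor a Cre in the flox mice is stated in the labels. NAT10 is the enzyme that places N4-acetylcytidine on RNA. Nat10 stood at 3.69, 3.75 and 4.18 FPKM in CKO hearts and at 3.87, 3.78 and 4.57 FPKM in flox hearts. Its log2 change was -0.06 ± 0.12 (SE; adjusted p = 0.768 by limma), so its whole-gene level did not check the deletion. CKO and flox are therefore the submitters' labels throughout. Recovered totals ran from 15048038 to 16280061 counts per heart.

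LincRNAs act by several routes. Some scaffold nuclear bodies, some bind chromatin regulators, some bind proteins or microRNAs in the cytoplasm, and for some the act of transcription itself affects a gene nearby. Others carry small RNAs or short reading frames inside an annotated non-coding transcript. Many start close to a protein-coding gene on the opposite strand, where a single promoter region fires in both directions. In the heart, lincRNAs are known from studies of cardiac lineage commitment and of hypertrophy.

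The members were short and thinly expressed. Their median gene length was 1342 bases, against 4392 bases over the 11041 tested protein-coding genes. Their median of the mean FPKM was 2.14, against 6.55 for those protein-coding genes. Only 18 members averaged 10 FPKM or more. The table's biotype was not always shared by other annotation. GENCODE M21 listed 169 members as lincRNA, and, counted separately, 169 members had the same position there. RefSeq held an entry at the same place for 111 members, of which 98 were long non-coding RNAs and 11 were protein-coding. Among the 11 were Zfp469, Lsmem2 and 1810058I24Rik. By the deposited positions, 71 members overlapped another gene, 52 of them one on the opposite strand. The labels do not state a strand-keeping library, so reads of such overlapping genes cannot be told apart.

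The members together took a smaller share of all counts in CKO hearts. That share was 0.260%, 0.325% and 0.286% in the 3 CKO hearts, against 0.346%, 0.365% and 0.336% in the 3 flox hearts. Every CKO heart lay below every flox heart. The means were 0.290% ± 0.033 in CKO hearts and 0.349% ± 0.015 in flox hearts (SD, n = 3 each; exact two-sided permutation p = 0.1, the smallest p that 3 hearts against 3 allow). Without Malat1 and Neat1, which hold much of that share, the means were 0.155% ± 0.013 in CKO hearts and 0.174% ± 0.006 in flox hearts (exact permutation p = 0.1). The groups then barely stayed apart, with CKO heart 2 at 0.1674% and flox heart 3 at 0.1681%.

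Gene by gene, 12 members rose, 32 fell and 130 did not pass the test in CKO against flox hearts (limma on log2(FPKM + 1), Benjamini-Hochberg adjusted p under 0.05 over all 12469 genes tested). Over all genes tested, 6.93% were called higher and 7.19% lower, 14.1% in either direction. Among the members 6.90% were called higher, which is close to that background, and 18.4% were called lower. A change of at least 2-fold beside the call was found for 8 higher and 18 lower members, against 2.65% and 2.69% of all genes. The 3 hearts of each group did not overlap for 23 members that were higher in CKO hearts and 53 that were lower, while 19.7% and 19.9% of all genes were apart in those directions, 39.6% in either. The median log2 change was -0.19 over the members and 0.00 over all genes tested.

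A level cut taken over both groups admits some genes through 1 group alone. Of the members, 29 averaged under 1 FPKM in CKO hearts and 17 averaged under 1 FPKM in flox hearts, and these had to differ. The 17 include the called rises 4833412C05Rik, AC105304.1, Gm48946, 2310075C17Rik, AC130815.1, Gm12092 and Gm26910. The 29 include the called falls Gm19277, Gm12519, Gm28979, Gm31013, Gm47850, Gm36670 and Chaer1. For all of these the call and its hold without single hearts are descriptions, because the cut itself selected a difference. Over the 128 members that averaged at least 1 FPKM in each group, 5 were called higher and 21 lower, with a median log2 change of -0.18. These are 3.91% and 16.4% of the 128. The shares over all genes under this stricter rule were not computed, so these counts have no matched background. By level, 2 of the 35 members at a mean of 5 FPKM or more were called higher and 12 lower, against 8.08% and 8.53% of protein-coding genes at that level. Of the 79 members under 2 FPKM, 4 were called higher and 7 lower, against 4.57% and 3.79% of such protein-coding genes. Calls were thus more frequent at higher levels among protein-coding genes too. The number of calls depended on single hearts. It was 10 (5 higher, 5 lower) without flox heart 1, 13 (5 higher, 8 lower) without flox heart 2, 19 (7 higher, 12 lower) without CKO heart 3 and 31 (10 higher, 21 lower) without CKO heart 1. Calls over all genes dropped too, to 364, 478, 755 and 1426 without those hearts.

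Other non-coding biotypes had medians below 0 as well. Of the 178 tested antisense genes, 4 were called higher and 30 lower, with a median log2 change of -0.29. Of the 91 processed transcripts, 10 were called higher and 8 lower, with a median of -0.07. The protein-coding genes had a median of 0.00. Where the hearts were scaled to TPM or to total counts, the median over all genes moved to 0.13 and 0.11. The member median was then -0.13 and -0.09, and under each of these scalings 16 members were called higher and 27 lower. Over all genes 69.0% and 66.4% of the calls were then higher, against 49.1% on the deposited scale.

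**Figure D1:**
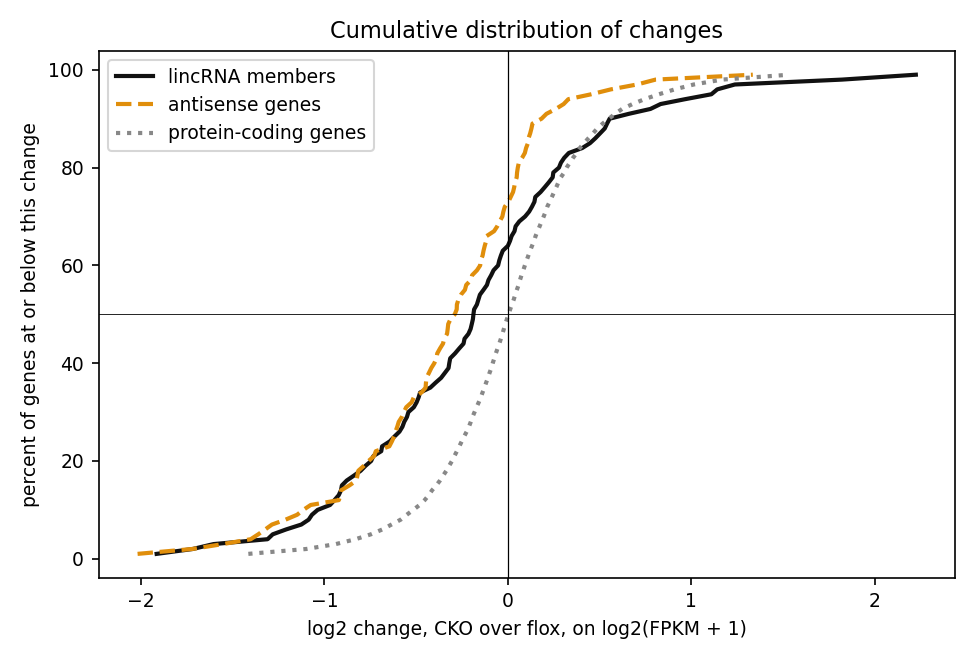
Cumulative distribution of log2 changes on log2(FPKM + 1), CKO over flox, for the 174 lincRNA members, the 178 antisense genes and the 11041 protein-coding genes tested. The horizontal axis is the log2 change, and the vertical axis is the percent of genes at or below it. The lincRNA curve crosses 50% at -0.19 and the protein-coding curve at 0.00, and at the 10th percentile the changes are -1.04 for lincRNAs and -0.52 for protein-coding genes. At the 90th percentile they are 0.56 and 0.55.

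Markers of heart cell types moved as well. The summed FPKM of 8 cardiomyocyte markers ran from 12020 to 13971 in CKO hearts and from 14704 to 19181 in flox hearts. Of these 8, Myh6, Myl2, Tnnt2 and Pln were called lower by limma and 3 were not called. Nppa, the atrial natriuretic peptide gene, was called higher, at 1696 ± 609 FPKM in CKO hearts and 21.9 ± 12.7 FPKM in flox hearts (SD, n = 3 each), so the sum holds moves in both directions. For 5 fibroblast markers it ran from 468 to 572 in CKO hearts and from 301 to 395 in flox hearts. Only Col1a1 and Tcf21 of these were called, both higher. Col1a1, at 342 ± 9 FPKM in CKO hearts and 188 ± 33 FPKM in flox hearts, carried most of the sum, and Pdgfra had a log2 change of -0.12. For 5 macrophage markers, of which Cd68 alone was called and was higher, it ran from 69.7 to 124 in CKO hearts and from 47.2 to 63.1 in flox hearts. Endothelial markers summed to between 186 and 270 FPKM in CKO hearts and between 276 and 305 FPKM in flox hearts, and smooth muscle and pericyte markers to between 363 and 433 FPKM in CKO hearts and between 469 and 600 FPKM in flox hearts. No endothelial, smooth muscle or pericyte marker was called by limma. The sums of these 5 lists did not overlap between groups. Erythroid markers summed to between 345 and 695 FPKM in CKO hearts and between 414 and 702 FPKM in flox hearts. Neuron and Schwann markers summed to between 2.85 and 9.16 FPKM in CKO hearts and between 1.29 and 2.43 FPKM in flox hearts. Skeletal muscle markers summed to between 241 and 409 FPKM in CKO hearts and between 453 and 476 FPKM in flox hearts, with 2 of the 5 listed at 0 in every heart. Adipose markers summed to at most 0.190 FPKM in any heart. In bulk tissue, fewer cells of a type and less RNA per cell cannot be told apart, and the part of cell makeup in the lincRNA changes was not tested.

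The largest rise was that of 4833412C05Rik (chr7:67784538-67804139, GRCm38, minus strand), a lincRNA to which no function is ascribed here. It stood at 10.9, 7.46 and 7.79 FPKM in CKO hearts and at 0.154, 0.282 and 0.515 FPKM in flox hearts. All 3 CKO hearts were far above all 3 flox hearts. The log2 change was 2.88 ± 0.18 (SE; adjusted p = 0.00129 by limma), and the call held with each heart left out in turn. The RNA averaged under 1 FPKM in flox hearts and met the level cut only through the CKO hearts, so the call is a description. Its RefSeq start site lies 643 bases from the start in the table. The promoter window from 250 bases before to 50 bases after that start (chr7:67803447-67803746, GRCm38.p6, minus strand, from RefSeq) is shown because the RNA above rose the most, and it held none of the motifs searched.
4833412C05Rik: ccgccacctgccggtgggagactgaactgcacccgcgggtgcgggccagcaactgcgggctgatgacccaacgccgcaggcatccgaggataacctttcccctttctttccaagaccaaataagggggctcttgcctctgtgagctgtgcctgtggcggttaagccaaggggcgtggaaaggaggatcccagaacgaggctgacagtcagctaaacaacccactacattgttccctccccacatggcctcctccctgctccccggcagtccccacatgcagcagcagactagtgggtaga

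Another 3 rises also held without any single heart. AC105304.1 (chr17:9864419-9882149, GRCm38) stood at 6.75, 3.02 and 3.997 FPKM in CKO hearts and at 0, 0.163 and 0.0743 FPKM in flox hearts. These levels rest on 182 reads in CKO hearts and 3 in flox hearts, a ratio of 56.9 with a 95% counting interval of 19.2 to 278. The log2 change was 2.32 ± 0.24 (SE; adjusted p = 0.00344 by limma). Gm48946 (chr15:60670343-60672084) rested on 94 reads in CKO hearts and 2 in flox hearts, a ratio of 44.1 with an interval of 11.9 to 369. It stood at 1.98, 3.53 and 4.09 FPKM in CKO hearts and at 0.118, 0 and 0.0993 FPKM in flox hearts, a log2 change of 1.94 ± 0.22 (adjusted p = 0.00411). Both RNAs were near the limit of detection in flox hearts and met the level cut only through the CKO hearts. Gm30735 (chr3:53725477-53733018) was the most abundant of the members that rose. It stood at 17.6, 12.2 and 30.6 FPKM in CKO hearts and at 4.63, 2.90 and 2.72 FPKM in flox hearts, a log2 change of 2.19 ± 0.32 (adjusted p = 0.00857).

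The remaining 8 rises were each lost when some single heart was left out. 2310075C17Rik (chr9:112227579-112228242) lies inside the table's span of Arpp21 and averaged 4.37 ± 2.50 FPKM in CKO hearts and 0.581 ± 0.350 FPKM in flox hearts (SD, n = 3 each). Its log2 change was 1.69 ± 0.33 (SE; adjusted p = 0.0188 by limma), and the call was lost without flox heart 1 or 2. AC130815.1 averaged 2.42 ± 0.98 FPKM in CKO hearts and 0.421 ± 0.114 FPKM in flox hearts, with a log2 change of 1.23 ± 0.23. Gm12092 averaged 1.76 ± 0.55 FPKM in CKO hearts and 0.452 ± 0.387 FPKM in flox hearts, with a log2 change of 0.94 ± 0.23. AI839979 averaged 4.82 ± 0.82 FPKM in CKO hearts and 2.45 ± 0.84 FPKM in flox hearts, with a log2 change of 0.77 ± 0.20. Gm26910, whose start lies 19 bases from that of the nucleoporin gene Seh1l, averaged 1.64 ± 0.18 FPKM in CKO hearts and 0.810 ± 0.117 FPKM in flox hearts, with a log2 change of 0.54 ± 0.14. Seh1l itself had a log2 change of 0.33 ± 0.15 and was not called (adjusted p = 0.180). Without CKO heart 3 or without flox heart 2, none of AC130815.1, Gm12092, AI839979 and Gm26910 was called, and their adjusted p values reached at most 0.0596, 0.136, 0.130 and 0.159 over the hearts left out. Gm17501, Gm39090 and Zfp469 are described with their neighbours or with the RNAs that encode proteins.

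The promoter window of 2310075C17Rik (chr9:112227206-112227505, GRCm38.p6, plus strand, from RefSeq) is shown because it belongs to a rising member and held a muscle motif. Capitals mark a match to the MEF2 motif, bound by a family of muscle transcription factors, which overlaps a TATA match (TATAAA, here on the other strand).
2310075C17Rik: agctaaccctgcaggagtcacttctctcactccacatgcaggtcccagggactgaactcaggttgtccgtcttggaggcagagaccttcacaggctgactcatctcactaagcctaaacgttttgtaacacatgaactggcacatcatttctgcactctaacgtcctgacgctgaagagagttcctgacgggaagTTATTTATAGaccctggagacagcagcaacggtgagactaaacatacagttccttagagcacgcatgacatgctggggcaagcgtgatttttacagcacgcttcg
Windows were found for 93 members, 115 windows in all, and each motif was searched on both strands. The MEF2 motif was in 7 member windows, 6.09%, against 1.86% of all 32851 windows. Among named members it was also in the windows of Lsmem2, which was called lower, and of Malat1 and C920006O11Rik, which were not called. A match thus did not go with a rise. TATAAA was in 18.3% of member windows and 13.6% of all windows, and CCAAT in 36.5% and 37.4%. The GC box GGGCGG was in 32.2% of member windows and 35.7% of all windows, and the E-box CACGTG in 5.22% and 7.15%. A p53 half-site was in 6.96% of member windows and 8.36% of all windows. A match is a run of letters and was not measured as a binding site.

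The largest fall was that of Gm19277 (chr15:85149254-85156132, GRCm38, minus strand). It stood at 0.0513, 0.261 and 0.163 FPKM in CKO hearts and at 10.1, 20.2 and 2.21 FPKM in flox hearts. All CKO hearts were near 0, while the flox hearts were spread widely. It had a log2 change of -2.98 ± 0.60 (SE; adjusted p = 0.0208 by limma), and the call was lost without CKO heart 1 or 3 or flox heart 1 or 2, with an adjusted p of up to 0.0784. Its window (chr15:85156083-85156382, GRCm38.p6, minus strand, from RefSeq) is shown for that fall, and capitals mark an E-box.
Gm19277: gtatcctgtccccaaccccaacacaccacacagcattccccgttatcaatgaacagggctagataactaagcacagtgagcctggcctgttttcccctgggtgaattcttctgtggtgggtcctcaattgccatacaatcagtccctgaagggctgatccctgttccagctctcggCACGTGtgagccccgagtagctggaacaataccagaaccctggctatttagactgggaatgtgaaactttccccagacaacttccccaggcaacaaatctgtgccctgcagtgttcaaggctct

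The falls called with every heart left out in turn were those of Gm49477, Gm12519, Gm12319, 2310040G24Rik and Gm17552. Gm49477 (chr15:103135881-103140669) stood at 1.07, 2.17 and 1.05 FPKM in CKO hearts and at 9.86, 9.998 and 8.19 FPKM in flox hearts. The groups were wide apart, with a log2 change of -2.12 ± 0.19 (SE; adjusted p = 0.00247 by limma). Gm12519 (chr4:55969023-55993739) stood at 0.604, 1.40 and 0.729 FPKM in CKO hearts and at 7.43, 7.49 and 3.28 FPKM in flox hearts, a log2 change of -1.84 ± 0.29 (adjusted p = 0.0108). Gm12519 averaged under 1 FPKM in CKO hearts and met the level cut only through the flox hearts. 2310040G24Rik (chr6:86483376-86488227) stood at 2.93, 3.22 and 2.94 FPKM in CKO hearts and at 7.65, 11.4 and 7.72 FPKM in flox hearts. Its CKO values lay within a narrow band below every flox value, a log2 change of -1.28 ± 0.16 (adjusted p = 0.00582). Gm12319 and Gm17552 are described below with their neighbours.

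Other large falls lost their call without a single heart. Gm36827 averaged 1.06 ± 0.74 FPKM in CKO hearts and 5.34 ± 1.93 FPKM in flox hearts (SD, n = 3 each), a log2 change of -1.65 ± 0.32. Gm28979 averaged 0.243 ± 0.252 FPKM in CKO hearts and 3.06 ± 1.78 FPKM in flox hearts, a change of -1.63 ± 0.32. Gm31013 averaged 0.969 ± 0.858 FPKM in CKO hearts and 4.26 ± 0.93 FPKM in flox hearts, a change of -1.49 ± 0.29. These 3 calls, with limma adjusted p values of 0.0180, 0.0191 and 0.0191, were lost without flox heart 1 and without flox heart 2. Gm47850, a gene of 194 bases with 7 reads in CKO hearts and 29 in flox hearts, had a log2 change of -1.30 ± 0.29. Gm36670, which lies just inside the level threshold, averaged 0.283 ± 0.264 FPKM in CKO hearts and 1.72 ± 0.63 FPKM in flox hearts. The calls of Gm47850 and Gm36670 were lost without CKO heart 1 or 3 or flox heart 1 or 2. The more abundant Gm44386 averaged 13.2 ± 0.9 FPKM in CKO hearts and 30.8 ± 9.6 FPKM in flox hearts, a log2 change of -1.12 ± 0.21, and lost its call without CKO heart 3 or flox heart 1. So did 5430431A17Rik, at 18.6 ± 1.5 FPKM in CKO hearts and 40.9 ± 11.6 FPKM in flox hearts, a log2 change of -1.06 ± 0.20.

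**Figure D2:**
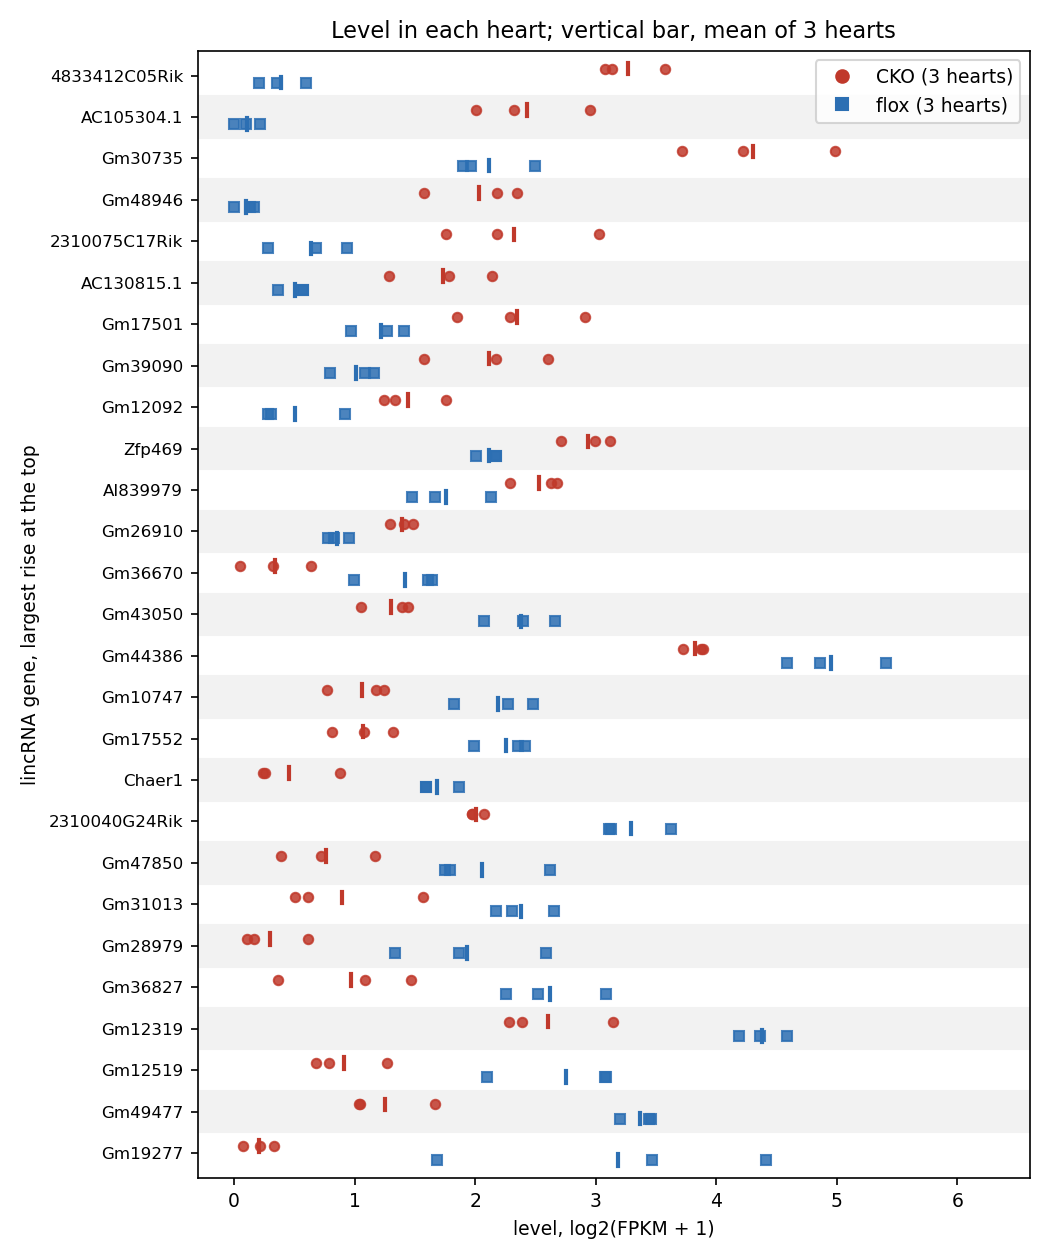
Level of the 12 members called higher and the 15 called lower with the largest falls, as log2(FPKM + 1) in each heart, with 3 CKO hearts as red circles above 3 flox hearts as blue squares and vertical bars at the means. Rows run from the largest rise, 4833412C05Rik, to the largest fall, Gm19277. In each row the groups do not overlap, and the flox hearts of Gm19277 are spread over the widest range.

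RNAs with a known part in the heart were lower or did not pass the test. Chaer1 (chr5:77138471-77140252), a heart-enriched RNA that binds the Polycomb complex and takes part in mouse cardiac hypertrophy, stood at 0.184, 0.841 and 0.194 FPKM in CKO hearts and at 2.63, 2.02 and 2.02 FPKM in flox hearts. All CKO hearts lay below all flox hearts, with a log2 change of -1.22 ± 0.21 (SE; adjusted p = 0.0137 by limma), lost without flox heart 1 (adjusted p = 0.0644). It rests on 13 reads in CKO hearts and 66 in flox hearts. Bvht, or Braveheart, which is needed for cardiac commitment of mouse embryonic stem cells, stood at 14.7, 15.8 and 16.4 FPKM in CKO hearts and at 25.3, 30.6 and 20.3 FPKM in flox hearts. It fell by 0.65 ± 0.16 on the log2 scale (adjusted p = 0.0385) and the call held without flox heart 3 but was lost without each of the other hearts. Carmn, the host of miR-143 and miR-145, lies beside Bvht and averaged 1.27 ± 0.70 FPKM in CKO hearts and 2.42 ± 0.71 FPKM in flox hearts, with overlapping groups and no call (adjusted p = 0.151). Mir17hg, the host of the miR-17-92 cluster, averaged 1.56 ± 0.61 FPKM in CKO hearts and 1.06 ± 0.07 FPKM in flox hearts and was not called (adjusted p = 0.371).
The Chaer1 window (chr5:77140256-77140555, GRCm38.p6, minus strand, from RefSeq) is shown because Chaer1 is a falling member with a known part in the heart. It held none of the motifs searched.
Chaer1: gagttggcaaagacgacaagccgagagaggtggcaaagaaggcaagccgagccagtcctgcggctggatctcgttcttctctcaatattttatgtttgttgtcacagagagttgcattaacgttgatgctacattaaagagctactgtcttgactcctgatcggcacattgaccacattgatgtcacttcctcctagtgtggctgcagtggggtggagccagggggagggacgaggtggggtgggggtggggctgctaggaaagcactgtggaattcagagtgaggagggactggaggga

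The abundant RNAs of nuclear bodies were below the flox level in every CKO heart without passing the test. Malat1, a nuclear speckle RNA and the most abundant member, stood at 104, 159 and 126 FPKM in CKO hearts and at 193, 210 and 176 FPKM in flox hearts. Its log2 change was -0.59 ± 0.18 (SE; adjusted p = 0.0707 by limma). Neat1, the scaffold of paraspeckles, stood at 18.9, 18.3 and 17.4 FPKM in CKO hearts and at 27.9, 22.5 and 19.4 FPKM in flox hearts, a log2 change of -0.32 ± 0.15 (adjusted p = 0.190). The RNA was selected by poly-T, and levels per gene do not tell apart RNA forms with and without a poly(A) tail. Of 10 paraspeckle protein genes, 0 were called by limma in either direction, with a median log2 change of 0.09. Of 17 tested genes of the nuclear exosome, which degrades many non-coding RNAs, and of its adaptors, 2 rose and 15 did not pass the test. Exosc1 had a log2 change of 0.71 ± 0.18 (adjusted p = 0.0407) and Exosc2 one of 0.78 ± 0.20 (adjusted p = 0.0408).

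Among RNAs that act in the cytoplasm, the Cyrano RNA fell. Cyrano, which directs the decay of miR-7, is listed as 1700020I14Rik and is Oip5os1 in RefSeq. It stood at 23.6, 37.6 and 35.1 FPKM in CKO hearts and at 61.5, 55.6 and 49.1 FPKM in flox hearts, a log2 change of -0.79 ± 0.20 (SE; adjusted p = 0.0380 by limma). The call was lost without CKO heart 3 or any of the flox hearts. Its neighbour Oip5 had a log2 change of 0.01 ± 0.31. Norad, which binds Pumilio proteins and is listed as 2900097C17Rik, stood at 35.4, 38.3 and 37.9 FPKM in CKO hearts and at 51.3, 48.7 and 44.6 FPKM in flox hearts. All CKO hearts were below all flox hearts, but the log2 change of -0.36 ± 0.12 was not called (adjusted p = 0.0839). Epb41l4aos was put in the same list as Norad beforehand, but its place in the cell was not measured and no cytoplasmic role is claimed for it. It averaged 12.0 ± 4.4 FPKM in CKO hearts and 6.82 ± 1.12 FPKM in flox hearts and was not called (adjusted p = 0.0895).

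Members that RefSeq lists as protein-coding moved in both directions. Lsmem2, a small membrane protein gene, stood at 17.8, 15.3 and 15.6 FPKM in CKO hearts and at 24.99, 32.2 and 23.5 FPKM in flox hearts, a log2 change of -0.68 ± 0.15 (SE; adjusted p = 0.0277 by limma), lost without CKO heart 2 or 3 or flox heart 1 or 2. Zfp469, a zinc finger gene, stood at 7.68, 5.55 and 6.95 FPKM in CKO hearts and at 3.50, 3.52 and 3.01 FPKM in flox hearts. Its log2 change was 0.82 ± 0.14 (adjusted p = 0.0124), lost without flox heart 1 (adjusted p = 0.0534). 1810058I24Rik, which encodes a short mitochondrial membrane protein, averaged 32.6 ± 7.2 FPKM in CKO hearts and 24.2 ± 0.6 FPKM in flox hearts, and was not called (adjusted p = 0.148). Gm10076, a pseudogene in RefSeq, averaged 39.9 ± 23.9 FPKM in CKO hearts and 53.6 ± 15.6 FPKM in flox hearts, with overlapping groups. Gm26917, a locus that resembles ribosomal RNA, averaged 16.1 ± 5.5 FPKM in CKO hearts and 10.3 ± 1.4 FPKM in flox hearts. Neither was called, and reads of such sequences can be split among copies, so these levels are uncertain.

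The long non-coding RNA genes that the member rule sets aside showed another balance. Of the 14 tested, 6 rose, 0 fell at the limma threshold and 8 did not pass the test, with a median log2 change of 0.58. Snhg15, a small nucleolar RNA host, averaged 11.8 ± 4.5 FPKM in CKO hearts and 1.98 ± 0.74 FPKM in flox hearts, a log2 change of 2.08 ± 0.27 (adjusted p = 0.00681). Snhg6, another such host, averaged 19.4 ± 7.5 FPKM in CKO hearts and 5.52 ± 0.85 FPKM in flox hearts, a log2 change of 1.60 ± 0.24 (adjusted p = 0.010). These genes are no members, and the difference between the groups of genes was not tested.

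The nearest protein-coding gene, by distance between the starts of the table's gene spans, was tested for 134 members. The median distance between gene bodies was 9578 bases, and 78 members had their neighbour within 5000 bases. The nearest gene by distance between gene bodies was the same one for 132 of the 174 members. By layout, 44 members lay upstream and 36 downstream of a neighbour on the same strand, 36 were head to head, 41 tail to tail and 17 overlapped it. Of the 134 pairs, 84 changed in the same direction, 62.7%, against 53.2% of 8130 pairs over all tested genes. On the TPM scale the shares were 56.0% over members and 57.2% over all genes, and with total-count scaling 57.5% and 57.3%. With quantile normalization they were 64.2% and 53.3%, so the excess was present on some scales and absent on others. Across member pairs the changes had a Pearson r of 0.383, and across all 8130 pairs r was 0.136. These pairs share hearts and libraries, so the coefficients are descriptions.

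Pairs that start close together on opposite strands were also compared. Starts lay between 8 and 748 bases apart in 21 such pairs, where r was 0.821, and 0.578 without the 2 pairs whose neighbour changed most. Over the 971 such pairs of other genes r was 0.151. Over the 33 head-to-head member pairs at any distance r was 0.726, and 0.590 without the 2 pairs whose neighbour changed most. The size of r in each set thus rests in part on 2 pairs. For members downstream of a neighbour on the same strand, r was 0.01 over 22 pairs. In the 21 close pairs 2 members were called higher and 6 lower, and 3 neighbours were called. The member and its neighbour passed the test in the same direction in 2 of these pairs, Gm12319 with Eno3 and Gm43050 with Tbx5.

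Gm12319 (chr11:70654741-70656493, minus strand) starts 709 bases from Eno3, which encodes the muscle form of the glycolytic enzyme enolase. Gm12319 stood at 3.85, 7.84 and 4.25 FPKM in CKO hearts and at 19.6, 23.0 and 17.3 FPKM in flox hearts. Eno3 stood at 190, 288 and 209 FPKM in CKO hearts and at 808, 690 and 747 FPKM in flox hearts. In both genes CKO heart 2 was the highest of the CKO hearts and every CKO heart lay below every flox heart. The log2 changes were -1.78 ± 0.24 for Gm12319 (SE; adjusted p = 0.00693 by limma) and -1.73 ± 0.19 for Eno3 (adjusted p = 0.00380). The log ratio of the pair changed by -0.05 ± 0.20 (adjusted p = 0.881). The Eno3 window (chr11:70656926-70657225, GRCm38.p6, plus strand, from RefSeq) is shown as the start region of this neighbour, with a CCAAT box on the other strand in capitals. The start of Gm12319 lies outside it, and the body of Gm12319 lies closer to Pfn1, the profilin gene, than to Eno3.
Eno3: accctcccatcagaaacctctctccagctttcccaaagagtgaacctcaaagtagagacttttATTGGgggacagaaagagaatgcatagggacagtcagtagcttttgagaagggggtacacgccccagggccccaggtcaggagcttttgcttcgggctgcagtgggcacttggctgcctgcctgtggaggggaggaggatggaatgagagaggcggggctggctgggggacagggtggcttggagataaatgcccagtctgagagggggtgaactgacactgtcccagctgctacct

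Gm43050 (chr5:119828448-119831920, minus strand) starts 748 bases from Tbx5, a transcription factor gene of heart development. Gm43050 stood at 1.73, 1.62 and 1.08 FPKM in CKO hearts and at 4.28, 5.33 and 3.20 FPKM in flox hearts, and Tbx5 at 2.28, 3.76 and 2.34 FPKM in CKO hearts and at 7.43, 6.65 and 4.52 FPKM in flox hearts. Both genes were lower in every CKO heart. The log2 changes were -1.08 ± 0.19 for Gm43050 (SE; adjusted p = 0.0137 by limma) and -0.92 ± 0.21 for Tbx5 (adjusted p = 0.0300). The call of Gm43050 was lost without flox heart 1 or flox heart 2.

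Gm17501 (chr3:145650312-145677580, plus strand) starts 331 bases from Cyr61, a matricellular protein gene. Gm17501 stood at 6.54, 2.60 and 3.88 FPKM in CKO hearts and at 1.41, 0.956 and 1.66 FPKM in flox hearts. Cyr61 stood at 124, 55.2 and 237 FPKM in CKO hearts and at 25.1, 39.4 and 42.3 FPKM in flox hearts. The groups were apart for each gene, and the CKO hearts of Cyr61 were spread widely. Gm17501 had a log2 change of 1.14 ± 0.27 (SE; adjusted p = 0.0329 by limma), lost without CKO heart 3, flox heart 1 or flox heart 2. Cyr61 had one of 1.73 ± 0.48 and was not called (adjusted p = 0.0534). The RefSeq window of Gm17501 (chr3:145649827-145650126, GRCm38.p6, plus strand) is shown because it also holds the table's start of Cyr61, at position 145649981. Capitals mark a GC box and a TATA match, both on the strand of Cyr61, which together span 18 to 29 bases before its start.
Gm17501: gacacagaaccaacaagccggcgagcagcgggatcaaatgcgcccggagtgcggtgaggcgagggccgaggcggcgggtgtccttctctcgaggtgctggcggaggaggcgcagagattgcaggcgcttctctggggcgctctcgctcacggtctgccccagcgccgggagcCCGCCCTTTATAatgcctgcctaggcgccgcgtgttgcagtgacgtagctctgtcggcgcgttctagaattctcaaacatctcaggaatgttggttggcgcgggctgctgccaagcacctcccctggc

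Over all 134 pairs, member and neighbour were both called higher in 1 pair and both lower in 5, and were called in opposite directions in 2. The member alone was called in 27 pairs, the neighbour alone in 14, and neither in 85. The pair called higher was 4833412C05Rik with Synm, which encodes the muscle intermediate filament protein synemin. Synm stood at 4.19, 3.56 and 4.25 FPKM in CKO hearts and at 1.44, 1.45 and 1.25 FPKM in flox hearts. The log ratio of this pair was itself called higher by limma, so the lincRNA rose by more than Synm. Chaer1 fell beside Hopx, a homeodomain protein gene of the heart. Hopx stood at 31.7, 42.4 and 36.9 FPKM in CKO hearts and at 122, 147 and 84.6 FPKM in flox hearts, a log2 change of -1.62 ± 0.22 (SE; adjusted p = 0.00740 by limma). Gm17552 overlaps the span of Carns1, the carnosine synthase gene. Its exons overlap exons of 2 other genes in the GENCODE annotation, so part of its reads may be shared. Gm17552 stood at 0.756, 1.49 and 1.11 FPKM in CKO hearts and at 4.11, 4.32 and 2.98 FPKM in flox hearts, a log2 change of -1.18 ± 0.18 (adjusted p = 0.00997). Carns1 had one of -1.64 ± 0.19 (adjusted p = 0.00453). Gm10747 lies 240 bases from Lrrc10, a heart muscle gene, and averaged 1.11 ± 0.36 FPKM in CKO hearts and 3.65 ± 1.03 FPKM in flox hearts, a log2 change of -1.13 ± 0.21 (adjusted p = 0.0166) that was lost without flox heart 1 or 2. Lrrc10 had a log2 change of -0.95 ± 0.30 and was not called (adjusted p = 0.0768).

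**Figure D3:**
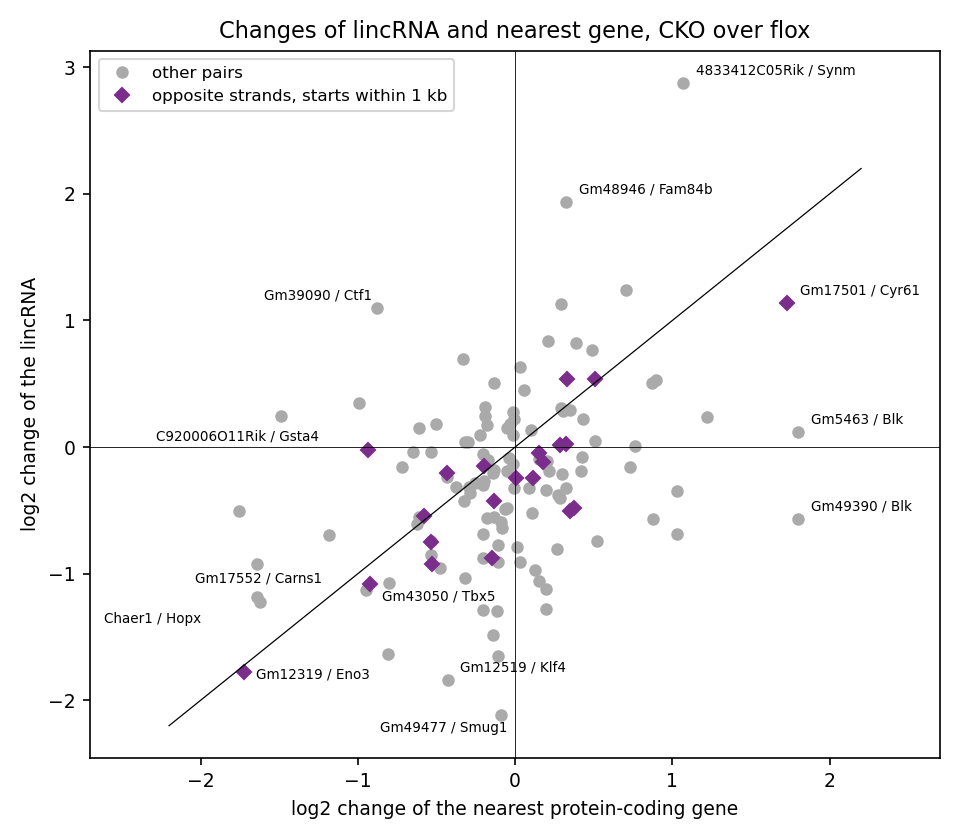
Log2 change of each of 134 lincRNA members (vertical axis) against that of its nearest protein-coding gene (horizontal axis), CKO over flox, on log2(FPKM + 1), with the line of equal change. Purple diamonds are the 21 pairs on opposite strands with starts within 1000 bases, and grey circles are the other pairs. The outermost diamonds are Gm12319 with Eno3 at the lower left and Gm17501 with Cyr61 at the upper right (r = 0.821 over the diamonds). Of the 21 diamonds 15 share a direction with their neighbour, and Gm49477 and Gm12519 lie far below the line.

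The log ratio of a member to its neighbour changed in 25 of the 134 pairs, 6 higher and 19 lower in CKO hearts (limma, adjusted p under 0.05 over all 8130 pairs). Over all pairs 8.36% were called higher and 9.02% lower, 17.4% in either direction. The count was 10 without flox heart 1, 11 without flox heart 2 and 13 without CKO heart 3. In Gm39090 with Ctf1, the cardiotrophin gene, the genes moved apart. Gm39090 stood at 5.06, 1.98 and 3.51 FPKM in CKO hearts and at 0.734, 1.24 and 1.13 FPKM in flox hearts, a log2 change of 1.10 ± 0.26 (adjusted p = 0.0324). Ctf1 stood at 0.951, 1.10 and 0.831 FPKM in CKO hearts and at 3.33, 2.63 and 1.97 FPKM in flox hearts, a log2 change of -0.88 ± 0.17 (adjusted p = 0.0187). Their log ratio changed by 1.98 ± 0.34 (adjusted p = 0.0111). The call of Gm39090 held only without CKO heart 2 among the single hearts left out.

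Lsmem2 and Sema3b, a secreted semaphorin gene, also moved apart. Sema3b stood at 13.6, 11.7 and 10.99 FPKM in CKO hearts and at 5.48, 7.01 and 4.02 FPKM in flox hearts, a log2 change of 1.03 ± 0.18 (SE; adjusted p = 0.0147 by limma). The log ratio of Lsmem2 to Sema3b changed by -1.71 ± 0.17 (adjusted p = 0.00225). Gm38150, which overlaps Lsmem2 and has the same neighbour, had a log ratio change of -1.38 ± 0.26 (adjusted p = 0.0141). By distance between gene bodies, Ifrd2 and not Sema3b is the nearest gene to Lsmem2 and Gm38150.

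In other pairs the ratio changed with the neighbour. Blk, a Src-family kinase gene, stood at 7.03, 18.5 and 18.4 FPKM in CKO hearts and at 2.75, 2.51 and 4.44 FPKM in flox hearts, a log2 change of 1.80 ± 0.36 (SE; adjusted p = 0.0201 by limma). The overlapping members Gm49390 and Gm5463 share Blk as their neighbour, and neither was called. Their log ratios to Blk changed by -2.37 ± 0.31 (adjusted p = 0.00498) and -1.68 ± 0.25 (adjusted p = 0.00756). Gsta4, a glutathione transferase gene, stood at 6.71, 7.69 and 6.59 FPKM in CKO hearts and at 22.1, 20.4 and 21.7 FPKM in flox hearts. C920006O11Rik beside it averaged 2.52 ± 0.45 FPKM in CKO hearts and 1.98 ± 0.58 FPKM in flox hearts, with a log ratio change of 1.74 ± 0.21 (adjusted p = 0.00378). 1700086O06Rik starts 316 bases from Dele1, which relays mitochondrial stress. Dele1 stood at 28.5, 36.1 and 29.7 FPKM in CKO hearts and at 67.1, 59.4 and 55.7 FPKM in flox hearts, while 1700086O06Rik averaged 1.82 ± 0.20 FPKM in CKO hearts and 1.88 ± 0.33 FPKM in flox hearts. Their log ratio changed by 0.91 ± 0.19 (adjusted p = 0.0183). Gm19710 with Ubap2l, which it overlaps, had a log ratio change of 0.68 ± 0.18 (adjusted p = 0.0422). The promoter window of Gm19710 also holds the start of another gene, Hax1, at position 89998780. The ratio of Gm19710 to Hax1 was not tested.

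In the last group the ratio changed with the lincRNA. The log ratio of Gm49477 to the DNA repair gene Smug1 changed by -2.03 ± 0.22 (SE; adjusted p = 0.00316 by limma), and Smug1 itself had a log2 change of -0.09 ± 0.12. That of Gm12519 to the transcription factor gene Klf4 changed by -1.41 ± 0.30 (adjusted p = 0.0207). Gm36827 with Hsf2, a heat shock factor gene, changed by -1.54 ± 0.37 (adjusted p = 0.0288), and Gm31013 with the protease gene Adamts15 by -1.34 ± 0.32 (adjusted p = 0.0276). These neighbours lie far off, with gene bodies 436557 bases apart for Gm12519, 504153 for Gm36827 and 117676 for Gm31013. 2310040G24Rik and Gm44386 lie near each other on chromosome 6 and share Pcbp1, an RNA-binding protein gene, with ratio changes of -1.47 ± 0.22 (adjusted p = 0.00760) and -1.32 ± 0.24 (adjusted p = 0.0126). Pcbp1 had a log2 change of 0.19 ± 0.18. By distance between gene bodies, C87436 and not Pcbp1 is the nearest gene to 2310040G24Rik. Gm48946 with Fam84b changed by 1.61 ± 0.26 (adjusted p = 0.00946).

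**Figure D4:**
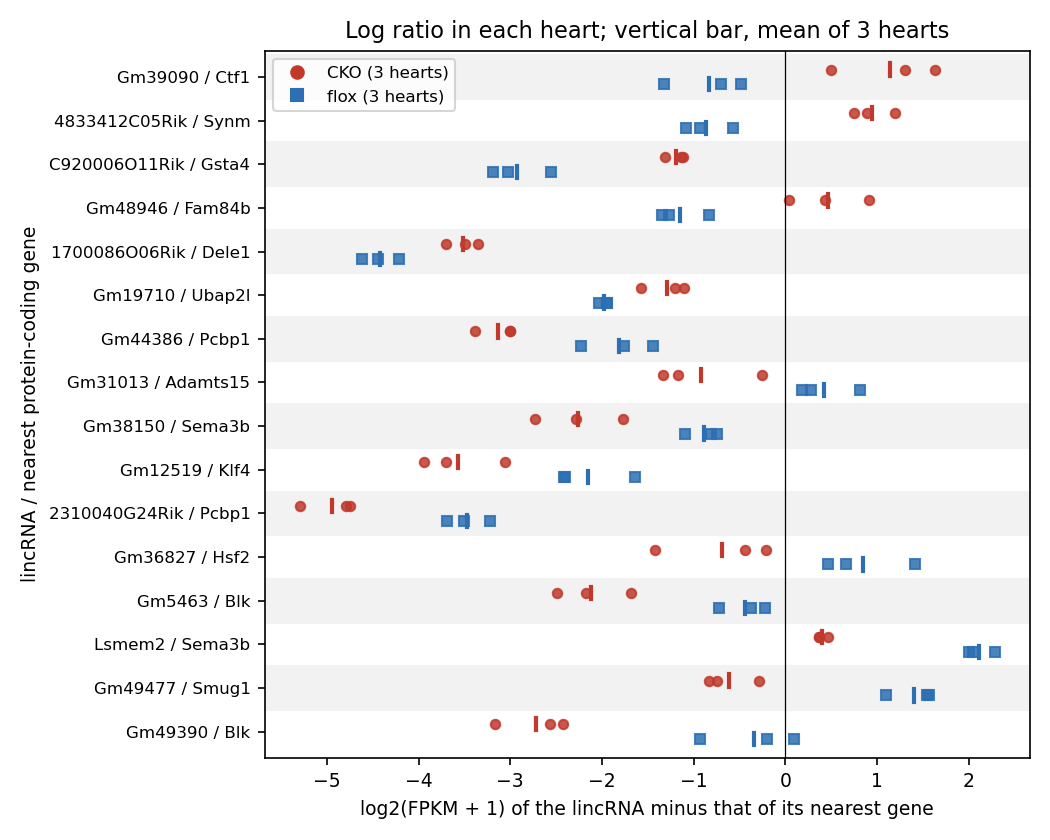
Log ratio of a lincRNA to its nearest protein-coding gene, as the difference of their log2(FPKM + 1), in each of 3 CKO hearts (red circles, above) and 3 flox hearts (blue squares, below), for the 6 pairs called higher and the 10 called lower with the largest change. Vertical bars are means. In each row the groups do not overlap, from Gm39090 with Ctf1 at 1.98 to Gm49390 with Blk at -2.37.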

How the data were processed

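Poly-T-selected RNA of 6 mouse hearts, 3 CKO and 3 flox, was read as paired ends, per the labels' protocols. Per the submitters' processing notes, HISAT2 2.0.5, featureCounts 1.5.0-p3 and the GRCm38 build were used. The authors deposited FPKM values with gene biotypes, positions and lengths. FPKM multiplied by length gave whole reads, within 0.01, for 100% of values, and these recovered counts follow median-ratio scaling with size factors of 0.893 to 1.07.

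Genes of a mean FPKM of at least 1 were tested on log2(FPKM + 1), so fold changes understate those of low genes, with limma 3.58.1 in R 4.3.3 (mean-variance trend, genotype only, Benjamini-Hochberg, two-sided). The log ratio of each gene to its nearest protein-coding gene was fitted likewise over 8130 pairs. Hearts are independent biological replicates, per the labels. Counting intervals cover counting error only. Positions are those of the deposited table, and promoter windows are RefSeq's, limited to starts within 1000 bases of the table's.

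The members, gene lists and tests were chosen with earlier results of these data known. Members named are all those called, up to 15 in each direction; those whose log ratio was called, up to 10 in each direction; the 5 most abundant; and sets of known RNAs, 46 in all. In the list of sets, 1700020I14Rik stood under p53-linked RNAs; it is Cyrano and is described as a cytoplasmic RNA. On simulated data for CKO against flox over 12469 genes, the fit called 12 of 100 genes with a 2-fold change, 88 of 100 with a 4-fold change and 22 of 12269 without one. The wrong direction was given for 0 genes. Alternatives were pseudocounts of 0.1 and 0.5, other filters, scalings and moderation, voom on recovered counts, the replicate number as a block, other definitions of the neighbour, members that overlap no gene, and each heart left out in turn.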

Additional observations from a re-analysis of the deposited data

How the results depend on the processing

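The 44 calls over members became 10 (5 higher, 5 lower) with no filter on low values and 14 (2 higher, 12 lower) with a minimum mean of 5 FPKM, where 35 members were left. Calls over all genes moved as well, from 1761 of 12469 to 641 of 28188 with no filter and 1396 of 6987 with that minimum. With each heart left out in turn the member calls ran from 10 to 47, the 12 rises from 5 to 12 and the 32 falls from 5 to 37. Calls over all genes then ran from 364 to 1794. The median log2 change of -0.19 was -0.30 with a pseudocount of 0.1, -0.36 with the minimum of 5 FPKM and -0.31 with voom, and -0.24 to -0.15 over the hearts left out. The 25 pairs with a changed log ratio became 7 with the minimum of 5 FPKM and 43 with array weights, and ran from 10 to 28 over the hearts left out. The share of pairs that changed in the same direction ran from 60.4% to 64.2% over the hearts left out. Same-numbered hearts did not deviate together (correlations of -0.283, -0.137 and -0.192). With 3 hearts in each group, this check cannot show whether the numbers pair the samples. With the replicate number as a block, 18 members (7 higher, 11 lower) and 13 pairs were called, and 541 of all 12469 genes. The log2 change of 1700086O06Rik, which was not called, turned from -0.025 to 0.088 on the TPM scale and 0.066 with total-count scaling, and ran from -0.092 to 0.065 over the hearts left out. That of Gm5463, also not called, ran from -0.062 to 0.33 over the hearts left out. The cause of these moves was not tested, except that fewer hearts or members entered some of them. Members without any overlapping gene gave 33 calls of 103 (9 higher, 24 lower). The median member had 48 counts per heart, and 30 members summed to under 30 counts in a group, so small changes were not detectable for them at this depth.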

Other observations

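The 13 members called lower that the naming rule does not take had log2 changes between -1.04 and -0.49, with limma adjusted p values from 0.0148 to 0.0498. In 15 places 31 members lay within 50000 bases of another member. One such place, chosen after its values were seen, holds AI480526, Gm38102 and 4932422M17Rik beside Setd1b, a histone methyltransferase gene. AI480526, among those 13, stood at 1.65, 2.12 and 1.03 FPKM in CKO hearts and at 3.72, 3.42 and 2.80 FPKM in flox hearts, a log2 change of -0.75 ± 0.18 (SE; adjusted p = 0.0373 by limma). Gm38102 and 4932422M17Rik had changes of -0.85 ± 0.25 and -0.74 ± 0.22 and were not called (adjusted p = 0.0591 and 0.0676). All 3 RNAs were below every flox heart in every CKO heart. They overlap each other or a further gene, so their reads may be shared, and Setd1b had a log2 change of -0.54 that was not called (adjusted p = 0.139).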
